A study of Mus musculus with 6 samples.

Results

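The Ikaros family of transcription factors was examined in Tregs with and without Zfp335. Its 5 genes, Ikzf1, Ikzf2, Ikzf3, Ikzf4 and Ikzf5, were taken by symbol from a table of 13709 genes, and each had 1 row. The family was followed in RNA-Seq counts of CD4+YFP+CD25+ cells sorted from 3 WT and 3 KO samples. WT mice were Foxp3Cre and KO mice were Foxp3Cre Zfp335 fl/fl, both on C57BL/6 and, per the study's methods, 2 weeks old. Both genotypes therefore carried the Foxp3-driven Cre with its YFP marker, and KO mice differed by the floxed Zfp335 alleles. Cre made from the Foxp3 locus deletes only in cells that have expressed Foxp3, so loss of Zfp335 starts when a cell becomes a Treg. The sample labels named both lymph node and spleen as the tissue, and whether animals were pooled was not stated. The p-values below measure the spread between these samples, which may be partly technical.

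Ikaros family proteins are zinc finger factors made mainly by blood cells. The N-terminal fingers of Ikaros, Helios, Aiolos and Eos bind DNA at sites with a GGGAA core. Through a C-terminal pair of fingers the family members join each other as homodimers and heterodimers. They can recruit repressive chromatin complexes such as NuRD to the genes they bind. Ikaros (Ikzf1) is made throughout the lymphoid lineage, and Aiolos (Ikzf3) in B cells and in activated and differentiating T cells. Helios (Ikzf2) marks most Tregs that arise in the thymus and supports their stability. Eos (Ikzf4) is a partner of Foxp3 in gene silencing. Pegasus (Ikzf5) is the most divergent relative and is made in many tissues.

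The coding sequence of fingers 2 and 3, which read the GGGAA core in Ikaros, Helios, Aiolos and Eos, is shown for each gene because these fingers make the contact with DNA. The sequences are from GENCODE M21 transcripts (GRCm38, the assembly of mm10), taken from the principal transcript, and each stretch lies within 1 coding exon. They are given 5′ to 3′ on the strand of the gene, with the cysteine and histidine codons that hold the zinc ions in capitals.
Ikzf1 (Ikaros), chr11:11754024-11754170, plus strand: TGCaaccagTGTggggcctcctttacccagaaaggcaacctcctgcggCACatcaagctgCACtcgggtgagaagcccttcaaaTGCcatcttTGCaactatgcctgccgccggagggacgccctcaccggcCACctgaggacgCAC
Ikzf2 (Helios), chr1:69570497-69570643, minus strand: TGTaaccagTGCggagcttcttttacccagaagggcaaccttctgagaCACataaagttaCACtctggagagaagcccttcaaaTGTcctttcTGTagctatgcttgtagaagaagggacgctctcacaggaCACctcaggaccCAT
Ikzf3 (Aiolos), chr11:98488856-98489002, minus strand: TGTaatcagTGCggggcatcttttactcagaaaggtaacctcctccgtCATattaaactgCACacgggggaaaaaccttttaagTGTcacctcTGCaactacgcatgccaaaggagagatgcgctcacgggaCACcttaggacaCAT
Ikzf4 (Eos), chr10:128640145-128640291, minus strand: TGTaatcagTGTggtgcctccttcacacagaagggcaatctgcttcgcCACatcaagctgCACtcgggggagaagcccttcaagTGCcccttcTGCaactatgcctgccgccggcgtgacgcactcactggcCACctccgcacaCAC
Ikzf5 (Pegasus), chr7:131392414-131392563, minus strand: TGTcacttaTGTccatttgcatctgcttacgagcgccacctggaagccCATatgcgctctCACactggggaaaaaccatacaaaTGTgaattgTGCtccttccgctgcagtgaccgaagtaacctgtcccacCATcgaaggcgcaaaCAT
The stretches of Ikzf1, Ikzf2, Ikzf3 and Ikzf4 had 147 bases each, and that of Ikzf5 had 150 bases. Base identity over these 147 positions was highest between Ikzf1 and Ikzf4, at 83.7%, and lowest between Ikzf2 and Ikzf3, at 72.8%. Ikzf2 and Ikzf4 were identical at 74.8% of positions. Over the 153 bases of the last 2 fingers, which carry the dimerization surface, identity among these 4 genes was 75.8% to 84.3%, and it was 60.1% to 63.4% between each of them and Ikzf5. The longest run of bases shared by any 2 of the principal coding sequences was 26, between Ikzf1 and Ikzf3. The read length was not given in the sources used here.

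The genes lie on 4 chromosomes of mm10. Ikzf1 is on chromosome 11 at 11685003 to 11772926, and Ikzf3 is on the same chromosome at 98464902 to 98546031. Ikzf2 is on chromosome 1 at 69531214 to 69687245, Ikzf4 on chromosome 10 at 128630843 to 128645991, and Ikzf5 on chromosome 7 at 131388652 to 131410521. Exons of Ikzf5 share 4652 of their 5721 bases with exons annotated on the opposite strand to Pstk, a kinase gene of selenocysteine tRNA. Whether the counting used strand was not stated, so the counts of Ikzf5 are uncertain. No member shared exon bases with another protein-coding gene apart from that. Ikzf2 shared 144 exon bases and Ikzf4 shared 37 with noncoding genes of the opposite strand. Ikzf5 also shared 183 with Gm44624 of the opposite strand, which is not annotated as protein-coding. GENCODE lists 6 complete coding transcripts of Ikzf2 that encode from 3 to 6 fingers, and 4 of Ikzf1 that also encode from 3 to 6. Of Ikzf4 there are 4 that encode from 0 to 6 fingers, of Ikzf5 3 that encode from 1 to 5, and of Ikzf3 1 with 6. The counts sum all transcripts of a gene, so isoforms that lack DNA-binding fingers were not measured apart.

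The libraries held 32032631 to 40728419 counts, and the member with fewest counts, Ikzf5, had at least 1365 in each of them. WT replicate 3 stood apart from the other WT samples on the second principal component of log2 CPM, at -58.9 against 22.1 and 34.4, a component with 18.4% of the variance. The KO samples lay close together on it, at 0.419 to 1.27, and whether they came from separate animals was not stated. The targeted gene, Zfp335, had 94.3 to 103 CPM (counts relative to library size after TMM scaling) in the WT samples against 37.0 to 40.2 CPM in the KO samples (edgeR adjusted p 2.14e-05), although it shares 1107 exon bases with Pcif1 of the opposite strand. Defining Treg genes were present in each sample, and Foxp3 ranged from 642 to 1190 CPM (WT) and from 460 to 472 CPM (KO). Of 8 genes of dividing cells all were called higher in KO. They summed to 844, 839 and 352 CPM in WT replicates 1 to 3 and to 2639 to 2740 CPM in KO. Genes of myeloid cells summed to 16.6 to 27.8 CPM in WT and 49.9 to 59.1 CPM in KO, with 5 of 6 called higher. Of these, Itgam shares 3450 of its 5024 exon bases with Gm49368 of the same strand, and Csf1r shares 873 with Hmgxb3 of the opposite strand. S100a8 and S100a9, without a count in WT, passed the filter on counts through KO alone and could only be called higher. Genes of NK cells, with 3 of 4 called higher, summed to 3.71 to 5.98 CPM in WT and 22.7 to 24.4 CPM in KO. Klrd1, with 4 or 5 counts per WT sample, and Ncr1, with 4 to 20, also passed through KO alone. Eomes and Klrd1 held most of the KO sum, at means of 11.3 and 7.85 CPM, while Ncr1 was not called (edgeR adjusted p 0.13). Over all genes tested 11.9% were called higher. Of 7 B cell genes, which matter here because B cells make Ikaros and Aiolos, 1 was called higher and 1 lower, with sums of 21.7 to 25.7 CPM in WT and 20.9 to 22.5 CPM in KO. The summed levels of the B cell genes overlapped between genotypes, while those of the dividing, myeloid and NK cell genes did not, and their part in the results below was not tested.

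In KO Tregs, Helios and Eos were expressed at less than the WT level by more than the fold cutoff, Ikaros was higher and Aiolos lower by smaller amounts, and Pegasus overlapped between genotypes. A call required a fold change beyond 1.5 in either direction, together with p under 0.05 and a Benjamini-Hochberg adjusted p under 0.1 over the whole table. By this rule 2 of the 5 members were called in edgeR, both lower, and 2 also in DESeq2. Of all 13594 genes tested 24.4% were called, 11.9% higher and 12.5% lower. None of the members was called higher in either tool, although 1 of them was higher and 3 were lower at an unadjusted edgeR p under 0.05. The values of 4 of the 5 members did not overlap between WT and KO, which was so for 53.8% of all genes tested. The median log2 fold change was -0.48 over the 5 members and -0.04 over all genes tested. In bulk RNA, fewer cells that express a gene and less RNA per cell cannot be told apart.

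**Figure D1:**
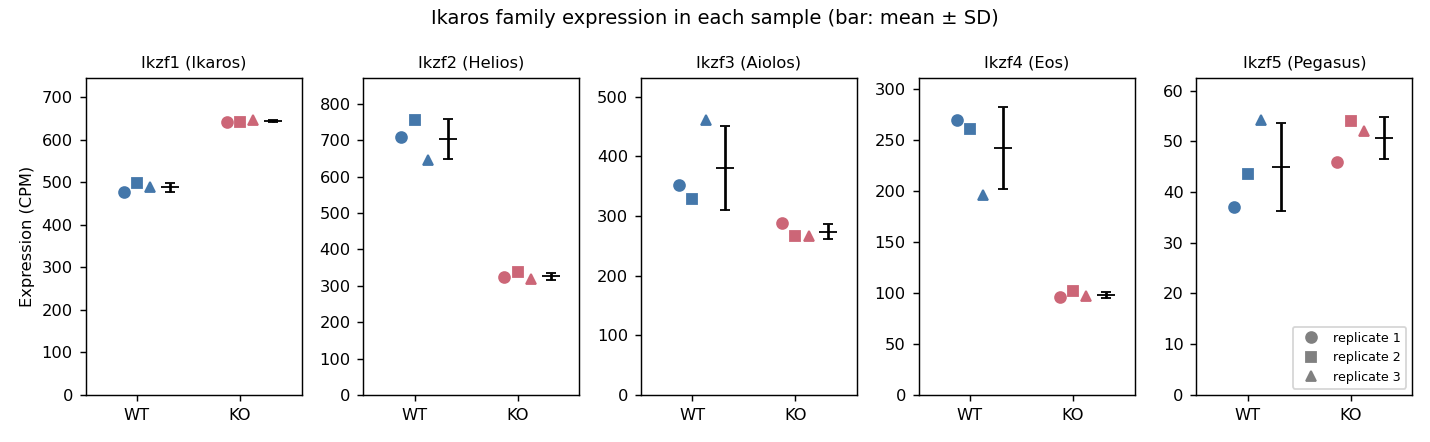
Expression of each Ikaros family gene in CPM, counts relative to library size (vertical axes, each from 0), in the 3 WT and 3 KO samples, with symbols for the replicate and bars for mean ± SD. For Ikzf2 and Ikzf4 all KO points lie below all WT points, for Ikzf1 all lie above, and for Ikzf5 the points overlap.

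Ikzf2 encodes Helios, whose loss in Tregs is known to make them unstable in inflamed tissue. WT replicates 1 to 3 had 709, 757 and 647 CPM of Ikzf2, whereas KO replicates 1 to 3 had 324, 338 and 317. Every KO sample lay below every WT sample, and the closest pair of WT and KO values was still far apart compared with the spread in either group. Ikzf2 fell to 46.3% of the WT level (log2 fold change -1.11, SE 0.08, 95% interval -1.29 to -0.93, edgeR adjusted p 6.07e-05). Among the fits that each left out 1 sample, the log2 fold change ranged from -1.17 to -1.06. The paper had already reported lower Ikzf2 in its RNA-Seq of KO Tregs. In heterozygous females without autoreactive inflammation, the paper found that most Treg and helper T cell signature genes differed little between genotypes. The cause of the fall in Ikzf2 was not tested here.

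Ikzf4 encodes Eos, which joins Foxp3 and corepressors to silence effector genes in Tregs. WT replicates 1 to 3 had 270, 261 and 196 CPM of Ikzf4, whereas KO replicates 1 to 3 had 96.3, 101.6 and 96.8. WT replicate 3 was the lowest of the WT samples, and it was above all KO samples. Ikzf4 fell to 40.5% of the WT level (log2 fold change -1.30, SE 0.12, 95% interval -1.58 to -1.02, edgeR adjusted p 0.000222), the largest difference in the family by size. Without WT replicate 3 the log2 fold change was -1.44, with an edgeR adjusted p of 4.75e-11.

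Ikzf1 encodes Ikaros itself, the founding member. WT replicates 1 to 3 had 477, 498 and 490 CPM of Ikzf1, whereas KO replicates 1 to 3 had 642, 641 and 647. Replicates of Ikzf1 were close to each other, with a coefficient of variation of 2.09% in WT and 0.473% in KO, and the genotypes did not overlap. KO had 132% of the WT level (log2 fold change 0.40, SE 0.06, 95% interval 0.26 to 0.54, edgeR adjusted p 0.00161). This passed the cutoff on adjusted p, but the fold change of 1.32 was under the fold cutoff, so Ikzf1 was not called.

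Ikzf3 encodes Aiolos, which appears as T cells differentiate and is known to silence Il2 in helper T cells. WT replicates 1 to 3 had 351, 328 and 461 CPM of Ikzf3, whereas KO replicates 1 to 3 had 287, 266 and 266. WT replicate 3 was the highest sample, and the lowest WT sample was above all KO samples. KO had 71.9% of the WT level (log2 fold change -0.48, SE 0.13, 95% interval -0.77 to -0.18, edgeR adjusted p 0.0201), which passed the cutoff on adjusted p and not the fold cutoff. Without WT replicate 3 the log2 fold change was -0.32 (edgeR adjusted p 0.000264).

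Ikzf5 encodes Pegasus, which pairs with other members through its C-terminal fingers. WT replicates 1 to 3 had 37.1, 43.6 and 54.3 CPM of Ikzf5, whereas KO replicates 1 to 3 had 46.0, 53.9 and 52.1. The highest sample of all was WT replicate 3, and the groups overlapped. The log2 fold change was 0.17 (SE 0.14, 95% interval -0.16 to 0.50, edgeR adjusted p 0.375), an interval that holds 0. Without WT replicate 3 it was 0.33, with an edgeR adjusted p of 0.00775, so 1 library decided on which side of the adjusted p cutoff this gene lay. The overlapping gene Pstk was called lower (edgeR log2 fold change -0.65, adjusted p 0.0041), with means of 21.1 CPM (WT) and 13.5 CPM (KO), and was just under the fold cutoff without WT replicate 2 (-0.58).

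**Figure D2:**
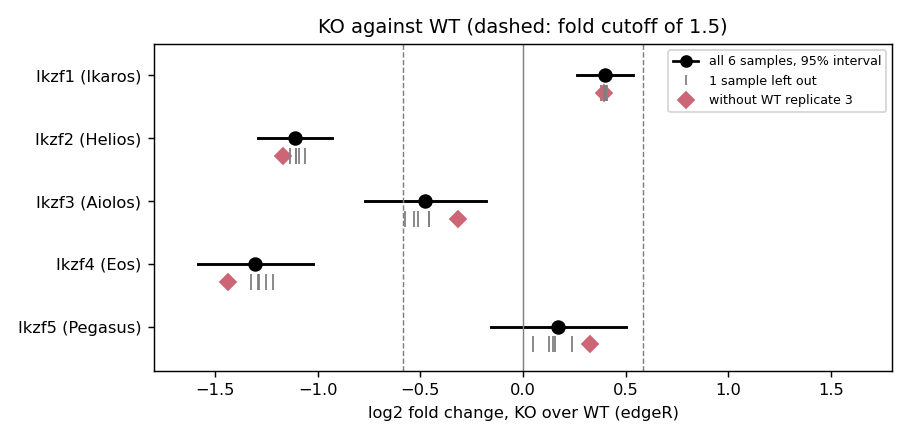
Log2 fold change of KO over WT for each member (horizontal axis). Black points and lines are the edgeR estimate and its 95% interval over all 6 samples, grey ticks are fits with 1 sample left out, diamonds are fits without WT replicate 3, and dashed lines mark the fold cutoff of 1.5. The intervals of Ikzf2, from -1.29 to -0.93, and Ikzf4, from -1.58 to -1.02, lie wholly beyond the cutoff, and that of Ikzf5 crosses 0.

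To compare the members with each other, their CPM was divided by the length of their exons in kilobases. On this scale WT Tregs had 84.5 ± 1.77 CPM per kilobase of Ikzf1 (SD, n = 3), 60.7 ± 4.73 of Ikzf2, 43.4 ± 8.12 of Ikzf3, 40.5 ± 6.70 of Ikzf4 and 7.86 ± 1.52 of Ikzf5. In this order only the neighbors Ikzf3 and Ikzf4 overlapped in WT, at 37.5 to 52.7 and 32.8 to 45.0 CPM per kilobase. In KO Tregs Ikzf1 was again first, at 111 ± 0.53 CPM per kilobase, followed by Ikzf3 at 31.2 ± 1.41 and Ikzf2 at 28.1 ± 0.88. Next came Ikzf4 at 16.4 ± 0.49 and Ikzf5 at 8.86 ± 0.73 CPM per kilobase. The neighbors Ikzf2 and Ikzf3 did not overlap in KO, at 27.3 to 29.1 and 30.4 to 32.8 CPM per kilobase. The place of Ikzf3 depended on the length used: with the longest transcript in place of all exons it came before Ikzf2 in WT as well, at 82.5 ± 15.4 against 75.9 ± 5.93 CPM per kilobase of Ikzf2, with overlapping ranges.

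The summed level of the 5 genes was 237 ± 2.67 CPM per kilobase in WT and 196 ± 0.91 in KO (SD, n = 3), so that KO had 82.7% of the WT sum. All KO sums lay below all WT sums, and the exact two-sided permutation test gave p = 0.1, the smallest that 3 samples against 3 allow. Ikzf1 made up 35.1%, 35.9% and 36.0% of the sum in WT replicates 1 to 3, and 56.7%, 56.4% and 57.4% in KO replicates 1 to 3. By exon length Ikzf1 was thus the highest member in every sample, and its shares did not overlap between genotypes. With the longest transcript as length its mean share was 30.5% in WT and 49.9% in KO, and in WT replicate 3 it was below Ikzf3, at 30.1% against 31.8%. The share of Ikzf2 was 25.6 ± 1.77% in WT and 14.3 ± 0.39% in KO, and that of Ikzf4 was 17.1 ± 2.77% and 8.36 ± 0.22%. The share of Ikzf3, 18.3 ± 3.56% in WT and 15.9 ± 0.72% in KO, overlapped between genotypes, and its difference of -2.41 percentage points was -0.40 without WT replicate 3. The share of Ikzf5 was 3.32 ± 0.65% and 4.52 ± 0.37%. The exact permutation p was 0.1 for the shares of Ikzf1, Ikzf2, Ikzf4 and Ikzf5 and 0.2 for Ikzf3, and 0.125 and 0.2 after Benjamini-Hochberg adjustment over the 5 shares. The shares sum to 100% in each sample, so the share of one member falls when another rises.

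**Figure D3:**
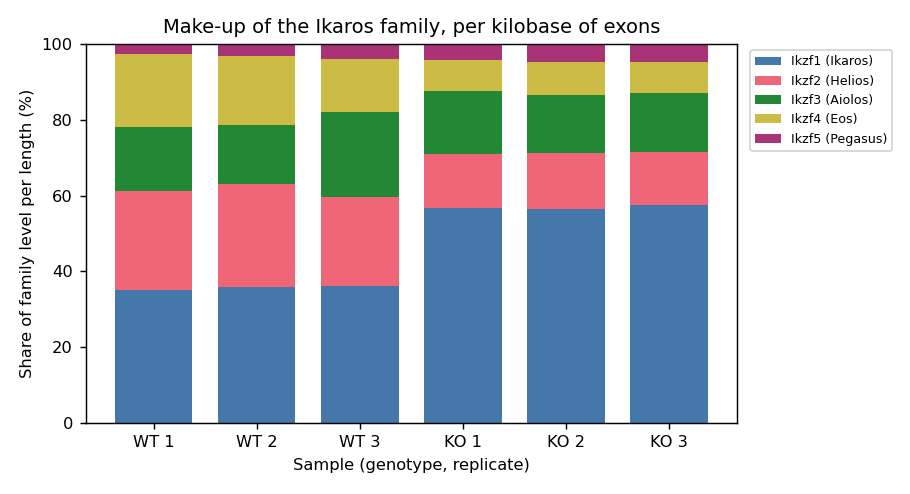
Share of each member in the summed family level per kilobase of exons (vertical axis, percent) in each WT and KO sample. The Ikzf1 segment spans 35.1% to 36.0% in WT and 56.4% to 57.4% in KO, while the Ikzf2 and Ikzf4 segments are smaller in every KO sample than in any WT sample.

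Whether 2 members differed between genotypes by unequal amounts was tested on the log2 ratio of their counts within a sample, which no library scaling can change. There were 10 pairs, and 8 had no overlap between WT and KO. Each of these 8 had an exact two-sided permutation p of 0.1, the smallest possible, and 0.125 after Benjamini-Hochberg adjustment over the 10 pairs. The pairs share genes, and the share without overlap over all gene pairs was not computed. Of single genes tested, 53.8% did not overlap. Ratios of Ikzf1 to Ikzf2, Ikzf3 or Ikzf4 could not overlap, as Ikzf1 lay above WT in every KO sample and the others below. Pairs with Ikzf5 carry the uncertainty of its counts. The log2 ratio of Ikzf1 to Ikzf2 was -0.57, -0.60 and -0.40 in WT replicates 1 to 3, and 0.99, 0.93 and 1.03 in KO replicates 1 to 3. The sign of this ratio was thus opposite in the genotypes, with more counts of Ikzf2 in each WT sample and more of Ikzf1 in each KO sample. The ratio of Ikzf1 to Ikzf4 differed most, from 1.02 ± 0.26 in WT to 2.71 ± 0.05 in KO (log2, SD, n = 3). The pair called lower, Ikzf2 and Ikzf4, overlapped in its ratio, at 1.39, 1.53 and 1.72 in WT and 1.75, 1.73 and 1.71 in KO (difference 0.18, exact permutation p = 0.2). The ratio of Ikzf1 to Ikzf5 overlapped too (difference 0.21, exact permutation p = 0.3).

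Foxp3, the factor that defines Tregs, was itself called lower, with 857 ± 292 CPM (WT) against 465 ± 6.48 CPM (KO, SD, n = 3 each, edgeR log2 fold change -0.88, adjusted p 0.0122), and was under the fold cutoff without WT replicate 3 (-0.57). It shares 590 exon bases with Ccdc22 and 266 with Ppp1r3f, both of the opposite strand. Per count of Foxp3 there were 0.961, 1.18 and 0.544 counts of Ikzf2 in WT replicates 1 to 3, and 0.704, 0.715 and 0.685 in KO replicates 1 to 3. For Ikzf4 these ratios were 0.366, 0.407 and 0.165 in WT, and 0.209, 0.215 and 0.209 in KO. In both ratios WT replicate 3 lay below all KO samples and the other WT samples lay above them. These ratios were chosen after the values were seen and were not tested.

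The genes that work with the family were compared next, from lists drawn from general knowledge with earlier results of these data known. NuRD is the remodeling and deacetylase complex that Ikaros family proteins recruit. Of its 15 genes, all tested, 1 was called lower by edgeR and none higher, with a median log2 fold change of 0.08, where 24.4% of all genes tested were called. At an unadjusted edgeR p under 0.05 there were 7 NuRD genes higher and 4 lower, and DESeq2 also called 1. The gene called was Chd3, an ATPase of the complex, which fell from 1210 ± 62.8 CPM to 701 ± 23.6 CPM (SD, n = 3, edgeR log2 fold change -0.79, adjusted p 0.000164). The other main ATPase, Chd4, ranged from 732 to 766 CPM (WT) and from 803 to 856 CPM (KO, edgeR log2 fold change 0.15, adjusted p 0.0996). Chd5, a further ATPase, had 1 to 40 counts per sample with overlapping groups and was not called (edgeR log2 fold change -1.45, adjusted p 0.223). Of the 8 genes of other corepressors and remodelers, 1 was called, higher: Ctbp2, with 0.538 ± 0.102 CPM (WT) against 1.33 ± 0.133 CPM (KO, SD, n = 3 each, edgeR log2 fold change 1.30, adjusted p 0.0287). It rests on 16 to 21 counts per WT sample, shares 314 exon bases with Fgfr2, and its adjusted p was 0.108 without KO replicate 1. At the protein level, Ikaros and Aiolos can be marked for destruction by the cereblon ubiquitin ligase when a drug of the thalidomide class binds it, and Ikaros is phosphorylated by CK2 and dephosphorylated by PP1. None of the 6 ligase genes and none of the 5 CK2 and PP1 genes tested was called by edgeR or DESeq2. At an unadjusted edgeR p under 0.05 there were 3 ligase genes higher and 1 lower, and 3 of the CK2 and PP1 genes higher. Crbn, the substrate receptor, showed 61.2 ± 8.16 CPM (WT) and 65.4 ± 3.27 CPM (KO, SD, n = 3 each, edgeR log2 fold change 0.10, adjusted p 0.505). Trps1, a factor with C-terminal fingers like those of the family, was not called (edgeR log2 fold change 0.26, adjusted p 0.106).

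Of 15 transcription factors known from Tregs, 3 were called higher and 2 lower, with a median log2 fold change of -0.14. These 5 of 15 compare with 24.4% called over all genes tested, and DESeq2 also called 5. Runx3, a factor of cytotoxic and Th1 cells, rose from 45.4 ± 8.17 to 171 ± 5.84 CPM (SD, n = 3, edgeR log2 fold change 1.91, adjusted p 4.36e-05). Satb1, a chromatin organizer that Foxp3 represses, rose from 293 ± 70.7 to 728 ± 19.7 CPM (edgeR log2 fold change 1.31, adjusted p 0.000598). Gata3, the Th2 master regulator, also rose (edgeR log2 fold change 0.78, adjusted p 0.000385). Besides Foxp3, Tcf7, which keeps T cells naive or stem-like, fell from 487 to 543 CPM in the WT samples to 311 to 334 CPM in the KO samples (edgeR log2 fold change -0.69, adjusted p 0.000374).

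Genes at which Ikaros family proteins have been studied in T cells or their precursors were compared last. Of 21 such genes 17 were tested, 7 were called higher and 1 lower, and the median log2 fold change was 0.36. Over all genes tested 11.9% were called higher and 12.5% lower, with a median of -0.04. DESeq2 called 9 of these 17 genes. The list was written with earlier results of these data known. The paper had already reported Ifng, Il4, Tbx21 and Gata3 as elevated in KO Tregs, so the comparison with all genes is not independent. The 3 largest rises were in effector genes. Il4 rose from 0.338 ± 0.069 to 8.65 ± 0.946 CPM, Ifng from 3.65 ± 0.953 to 84.0 ± 1.04 CPM, and Tbx21, which encodes T-bet, from 5.51 ± 0.505 to 71.3 ± 2.73 CPM (SD, n = 3, edgeR log2 fold changes 4.66, 4.52 and 3.69). Il4, with 9 to 15 counts per WT sample, passed the filter on counts through KO alone, so it could hardly be called lower. The other 4 called higher were Dtx1, a regulator of Notch signaling, Notch3, Cd8a and Gata3, at log2 fold changes from 0.78 to 1.38. Notch3 had 17 to 25 counts and Cd8a 33 to 85 counts in WT samples, and their calls were lost without single samples. Bcl6, the repressor that directs follicular T cells, fell from 37.2 ± 13.1 to 13.1 ± 1.02 CPM (edgeR log2 fold change -1.51, adjusted p 0.00288). Il2, which Helios, Eos and Aiolos are each known to help silence, had 4, 0 and 18 counts in WT replicates 1 to 3 and 33, 28 and 44 in KO replicates 1 to 3. Its groups did not overlap, but it was not called (edgeR log2 fold change 2.12, SE 0.96, adjusted p 0.12). Il2 also passed the filter on counts through KO alone and could hardly be called lower. Without WT replicate 3, the WT sample with most Il2 counts, it was called higher (3.98, edgeR adjusted p 0.00207). Whether these genes are bound by the family in these cells was not measured.

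**Figure D4:**
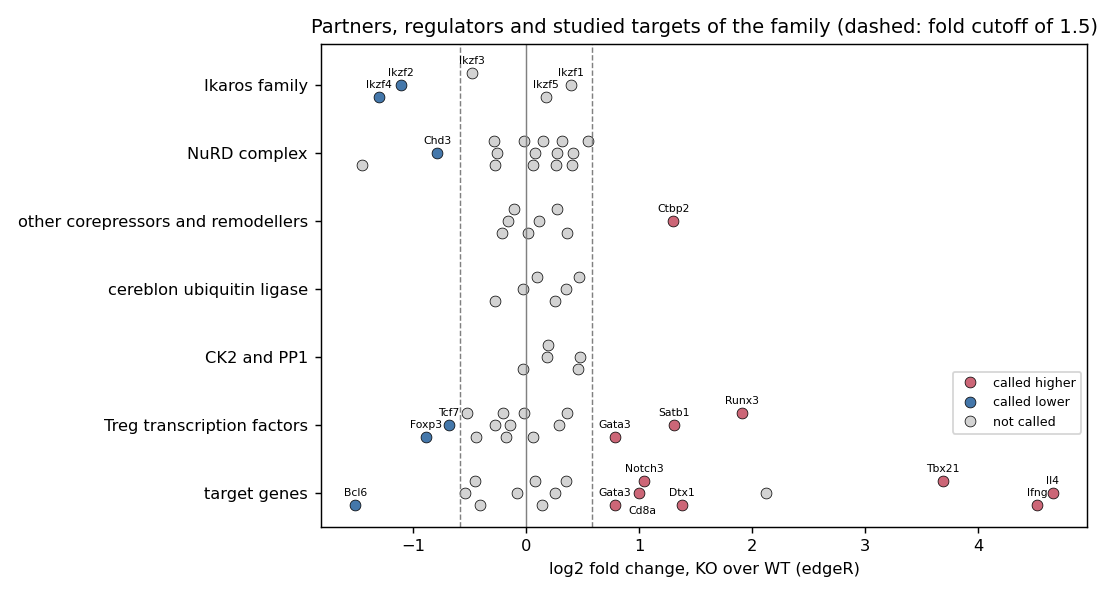
Log2 fold change of KO over WT (horizontal axis) for the family and for lists of its partners, regulators and studied targets, 1 point per gene, colored by call, with dashed lines at the fold cutoff of 1.5. Of the NuRD and corepressor genes Chd3 at -0.79, Ctbp2 at 1.30 and Chd5 at -1.45, which was not called, lie outside the cutoff, while the target genes reach 4.66 for Il4.

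Genes whose expression followed each member most closely were ranked by the root mean square (RMS) difference between mean-centered log2 CPM over the 6 samples, among 9881 genes whose mean level was 5 CPM or more. For Ikzf2 these were Itga4, Rsad1 and Ift80, at RMS differences of 0.04, 0.05 and 0.06 on the log2 scale, and Itga4 shares 1124 exon bases with Cerkl. For Ikzf4 they were Cyth3, Bckdhb and Zfr2, at 0.05, 0.06 and 0.07. For Ikzf1 they were Arl8b, Nup88 and Acly, each at 0.02. For Ikzf3 they were Nod1, Map3k14 and Rabgap1, at 0.03 to 0.04, and for Ikzf5 Qk, B2m and Mier1, at 0.03 to 0.04. All samples of a genotype share its difference from the other, so such lists mainly collect genes with a like fold change.

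The nearest protein-coding genes of the table on either side of each member were then examined. Spag16, a sperm flagellum gene 139.7 kb from Ikzf2, was called lower at a low level (2.04 to 0.503 CPM on average, edgeR log2 fold change -2.02, adjusted p 0.00762). The other neighbor, Lancl1, lies 2492 kb away and was not called (edgeR log2 fold change -0.51, adjusted p 0.00414). Beside Ikzf4, Rps26 at 4.10 kb and Suox at 23.9 kb were not called (edgeR log2 fold changes -0.21 and -0.41, adjusted p 0.225 and 0.0183). Fignl1, 14.5 kb from Ikzf1 and known from DNA repair, was called higher (edgeR log2 fold change 0.97, adjusted p 0.0199), and Spata48, at 1.18 and 0.978 CPM on average, was not called (-0.26). Grb7, an adaptor gene 9.53 kb from Ikzf3, was called lower (edgeR log2 fold change -1.32, adjusted p 0.0122), and Zpbp2, 5.07 kb away on the other side, was not called (-0.32). Acadsb, 80 bases from Ikzf5, was not called (-0.49). Of the 10 neighbors 4 were thus called, counting Pstk, where 24.4% of all genes tested were called.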

How the data were processed

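Per the study's methods, the authors filtered reads with SOAPnuke, aligned them to mm10 with HISAT2 with 1 alignment kept per read, and quantified genes with StringTie. The deposited table holds whole-number counts for 6 samples, without normalization. How they were rounded, the strand setting and the annotation were not given in the sources used here. No row summed to under 60, so low rows had been left out before deposit.

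Counts were tested across all genes with edgeR 4.0.16 in R 4.3.3: filterByExpr (minimum count 10, 13594 genes kept), TMM scaling, and the two-sided quasi-likelihood F-test of KO against WT with Benjamini-Hochberg adjustment over all genes tested. The SE is the log2 fold change divided by the square root of F. Cutoffs are the study's. DESeq2 1.42.0, RLE scaling, library totals alone, other filters, a replicate block and leaving out each sample were the alternatives. The procedure was tested on simulated data.

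Depth was 32032631 to 40728419 counts. Depth bounds counting error alone, as reads copied from 1 PCR template are not separate molecules. Exon lengths came from GENCODE M21, which held 97.87% of the symbols.

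Members and lists were chosen with earlier results of these data known. Named genes are the members, Zfp335, up to 3 rises and 3 falls among called genes of each list, defining genes of lists, the 3 most alike genes and the nearest neighbors. Chd4, Chd5, Il2, Dtx1, Notch3, Cd8a, Pcif1 and the other overlapping genes were named after their values or positions were seen. The genes Ppp1cc, Dntt, Rag1, Rag2 and Ptcra were not analysed here. Marker genes of plasma, dendritic, CD8 T and red cells were also summed.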

Additional observations from a re-analysis of the deposited data

How the results depend on the processing

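All 230 recomputed values of the 5 members, their shares, their ratios and the numbers of calls kept their direction and their call, or stayed within the limit set for a count. For shares and ratios only the sign was compared, so a change in size was not counted. Shares with library totals alone could not differ, because scaling cancels within a sample, and adding 1 count could hardly move a ratio. Ikzf2 and Ikzf4 were called lower in each of the 12 alternative fits, at log2 fold changes from -1.17 to -1.06 and from -1.44 to -1.22, and Ikzf1 ranged from 0.36 to 0.42 without being called. Ikzf3 ranged from -0.58 to -0.32 and Ikzf5 from 0.05 to 0.33, with edgeR or DESeq2 adjusted p from 0.00775 to 0.786 for Ikzf5. Without WT replicate 3, Ikzf2 was at -1.17, Ikzf3 at -0.32, Ikzf4 at -1.44 and Ikzf5 at 0.33. The number of calls over all genes ranged from 2867 to 3667, and the overall median shifted from -0.04 to -0.07 with library totals alone. Over the partner, regulator and target genes 12 to 16 were called, against 14 over all samples. With the replicate block 3190 genes were called, 3100 of them among the calls without it, Ikzf2 was at -1.11 and Ikzf4 at -1.29, and Notch3 lost its call (adjusted p 0.138). Same-numbered samples did not deviate together (correlations 0.04, 0.04 and -0.01), so the number was not taken as a pairing. Of 676 recomputed values of single list genes, markers, neighbors and lists, 639 kept their call, 29 lost it, 3 gained it and 4 counts moved. Spata48, not called in any fit, ranged from -0.55 to 0.25 when 1 sample was left out, above 0 without WT replicate 2, and the cause was not tested. Of the marker genes, Lyz2, Klrb1c, Jchain and Mzb1 each lost their call in 3 or more fits. The 3 gains were of Il2, with DESeq2 (2.16), with the replicate block (2.69) and without WT replicate 3 (3.98). Cd8a lost its call without WT replicate 2, KO replicate 1 or KO replicate 3, and Notch3 in each fit that left out 1 sample except that without WT replicate 2. With 3 samples per genotype an exact permutation test cannot pass 0.05, so the shares and ratios have no call to lose.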

Other observations

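Marker genes of further cell types had these summed levels. Genes of plasma cells (Jchain, Sdc1 and Mzb1) summed to 1.03 to 3.88 CPM in WT and 2.71 to 3.91 CPM in KO, and overlapped, while 2 of the 3, Jchain and Mzb1, were called higher by edgeR. Jchain, with 4 to 26 counts per WT sample, and Mzb1, with 3 to 14, passed the filter on counts through KO alone and could hardly be called lower. Mzb1 shares 695 exon bases with SPATA24 of the same strand. Genes of dendritic cells (Flt3, Itgax, Siglech and Zbtb46) summed to 1.98 to 3.94 CPM in WT and 8.81 to 11.5 CPM in KO, without overlap, and 1 of 4 was called higher. The gene called, Itgax, had 2 to 24 counts per WT sample and also passed through KO alone. Of all genes tested 11.9% were called higher. Cd8a and Cd8b1 of CD8 T cells, which are also among the target genes above, summed to 9.32 to 13.2 CPM in WT and 12.02 to 12.7 CPM in KO. Genes of red cells (Hba-a1, Hbb-bs and Alas2) summed to 53.8, 63.2 and 15.5 CPM in WT replicates 1 to 3 and to 27.3 to 30.0 CPM in KO, so WT replicate 3 held the lowest level of these transcripts.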
